A study of Mus musculus with 6 samples.

Results

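Bob1, the protein of *Pou2af1*, and the octamer-binding factors Oct-1 (*Pou2f1*) and Oct-2 (*Pou2f2*) were followed through RNA sequencing of splenic T follicular helper (Tfh) cells that lacked or kept *Pou2af1*. These are 3 genes, taken by name, of 25308 genes to which a value could be given in every library. Of the 3, 2 could be tested among 10283 genes, and *Pou2f1* could not, as described below. Mice of both groups were Bob1 fl/fl and carried the FoxP3 GFP/DTR reporter, which links GFP and the diphtheria toxin receptor to FoxP3. The Bob1KO group was CD4 Cre/+ in addition, and the WT group was CD4 +/+, so that WT cells also held the floxed allele and lacked only Cre. The floxed allele was designed to remove the whole *Pou2af1* gene, and Cre was driven by the *Cd4* promoter, which is active in T cells from the thymus onwards. Mice were given 100 µg of NP-CGG, a hapten coupled to a carrier protein, in complete Freund's adjuvant by the intraperitoneal route, and cells that were CD3+CD4+CXCR5+PD-1+ and negative for GFP and for the B cell marker B220 were sorted from their spleens on day 7. The methods give an age of 6 to 12 weeks for the mice of the study in general, and for the RNA sequencing 3 experiments per group with an n of 10 to 12 in each, so a library stands for a pool of animals. There were 3 Bob1KO and 3 WT libraries, each made from 0.7 ng of RNA.

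Oct-1 and Oct-2 are POU-domain transcription factors that bind the 8-base octamer found in immunoglobulin promoters and in other genes. Oct-1 is made in nearly all cells, whereas Oct-2 is enriched in lymphocytes. Bob1, also called OCA-B or OBF-1, has no DNA-binding domain of the classical kind. It clamps onto the POU domain of Oct-1 or Oct-2 once they sit on the octamer and adds a transactivation domain. It is best known from B cells, where germinal centers do not form without it, and it is also made in activated T cells. The comparison asked whether the loss of Bob1 was accompanied by a change in its own DNA-binding partners.

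Values are FPKM, fragments scaled to the length of the transcript and to the mapped fragments of the library. The total depth is not given in these files. The width of the interval that Cufflinks gives around each FPKM tells roughly how many fragments lie behind it, and by this measure the relative depth of the 6 libraries, set to 1 in Bob1KO replicate 1, ranged from 0.885 to 1.27. Of 12 Tfh markers, 12 had a mean FPKM of at least 1, the level a gene had to reach to be tested. Myeloid markers also reached it, as given below, so it does not by itself identify the cells. *Cd3e*, *Cd4*, *Cxcr5* and *Pdcd1*, the gene of PD-1, also belong to the sort gate. The summed level of the Tfh markers was 3258, 2466 and 2683 FPKM in Bob1KO libraries, against 3323, 2386 and 2307 FPKM in WT libraries. *Cd4* had the smallest P value of the Tfh list, with 466, 414 and 443 FPKM in Bob1KO libraries, against 379, 357 and 300 FPKM in WT libraries (log2 fold change 0.36, limma, adjusted P = 0.916). Next to it were *Cd200*, an immunoglobulin-superfamily surface protein of Tfh cells, with a log2 fold change of 0.30 (limma, adjusted P = 0.921), and *Il21*, the cytokine that supports germinal center B cells, with 0.19 (limma, adjusted P = 0.959).

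*Pou2af1* was nearly lost from Bob1KO Tfh cells. It is found at 51213690 to 51240079 on the plus strand of chromosome 9 (GRCm38). The gene had 1.16, 0.237 and 0.317 FPKM in Bob1KO libraries, against 46.1, 32.5 and 34.4 FPKM in WT libraries. The groups did not overlap, and the lowest WT value was 28.0 times the highest Bob1KO value. The means were 0.571 ± 0.512 FPKM in Bob1KO cells and 37.7 ± 7.37 FPKM in WT cells (SD, n = 3 each), so that 1.52% of the WT mean remained. On the scale of log2(FPKM + 1) the difference was -4.65, with a 95% interval of -5.26 to -4.05 (limma, adjusted P = 0.00340). The exact permutation test of the FPKM gave P = 0.1, the smallest value that 3 libraries against 3 allow. *Pou2af1* was 1 of only 3 genes called, 0.0292% of all genes tested, the others being *Pcsk1* (2.40 on the log2 scale, adjusted P = 0.0238) and C130026I21Rik (-2.23, adjusted P = 0.0341, both from limma). *Pcsk1* encodes a prohormone convertase, and C130026I21Rik belongs to a family of nearly identical gene copies, so that its value is uncertain. With the replicate number as a block in the limma fit, 0 genes were higher and 1 was lower at the adjusted P, and 641 genes had an unadjusted P below 0.05, against 551 without the block. The gene still called was *Pou2af1* (adjusted P = 0.00592). When both replicate 2 libraries were left out, an alternative chosen after seeing the data, the fold change of *Pou2af1* was -4.60 and its limma-adjusted P was 0.0682, so it was no longer called.

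A trace of *Pou2af1* was read in each Bob1KO library. The Cufflinks intervals were 0.861 to 1.46 FPKM in Bob1KO replicate 1, 0.118 to 0.355 FPKM in Bob1KO replicate 2 and 0.152 to 0.482 FPKM in Bob1KO replicate 3. They stand for about 59.9, 16 and 14.7 fragments in these Bob1KO libraries, against about 2369, 1708 and 1070 fragments in the WT libraries. The interval of replicate 1 lay above those of the other Bob1KO libraries. These intervals cover counting error only, as amplified fragments from 0.7 ng of RNA are not independent molecules, and the difference between the libraries was not tested. In the WT libraries the assembly rebuilt the gene over its full span, whereas in the Bob1KO libraries the value stood in a row carried over from the annotation under the gene's own name.

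**Figure D1:**
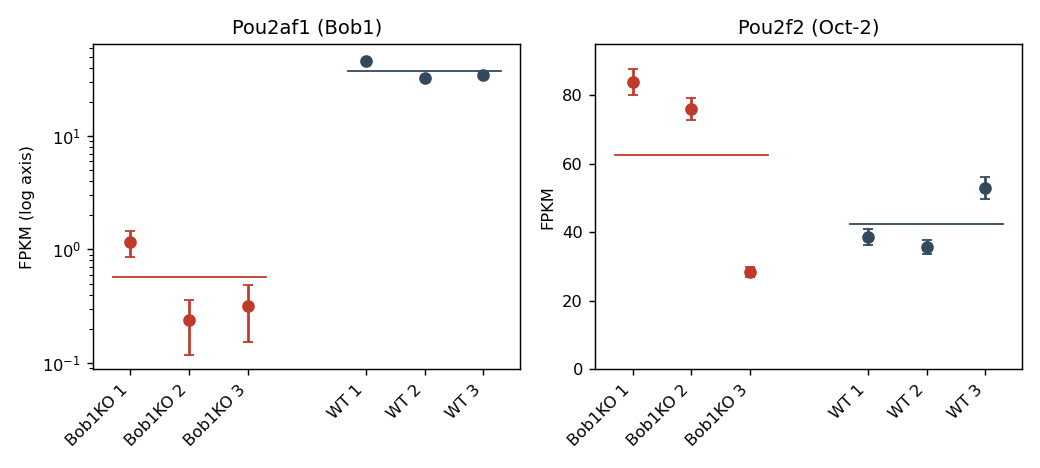
FPKM of *Pou2af1* (left, log axis) and *Pou2f2* (right) in each Bob1KO and WT library, with the Cufflinks interval as error bars and the group mean as a line. The Bob1KO libraries lie at or below 1.16 FPKM of *Pou2af1* and the WT libraries at or above 32.5 FPKM. For *Pou2f2* the groups overlap in FPKM, the scale on which Bob1KO replicate 3 is low.

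Since B cells make much *Pou2af1*, markers of B cells and of other cells were read beside it, although the B220- gate of the sort is one that removes B cells. Of 12 B cell markers, 10 had a value and 3 a mean of at least 1 FPKM. Their sum was 54.0, 27.2 and 45.8 FPKM in Bob1KO libraries, against 40.0, 23.6 and 23.1 FPKM in WT libraries. Most of this was *Cd22*, an inhibitory receptor of B cells, with 44.9, 25.0 and 40.2 FPKM in Bob1KO libraries, against 32.8, 17.8 and 18.1 FPKM in WT libraries. Without *Cd22*, a list trimmed after its values were seen, the sum was 9.12, 2.204 and 5.55 FPKM in Bob1KO libraries, against 7.23, 5.86 and 4.97 FPKM in WT libraries. The signal chain genes of the B cell receptor were low, with 2.92, 0.746 and 0.685 FPKM of *Cd79a* in Bob1KO libraries, against 2.28, 1.27 and 0.438 FPKM in WT libraries. *Cd79b* had 3.23, 1.31 and 3.53 FPKM in Bob1KO libraries, against 2.64, 2.86 and 4.36 FPKM in WT libraries. *Pax5*, which defines the B lineage, was listed at 0 in Bob1KO replicates 1 and 2 and WT replicate 3.

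Bob1KO replicate 1, which held the most *Pou2af1* of its group, also had the highest sum of B cell markers of its group. Within the group, *Cd79b*, *Pax5* and *Ebf1* were highest in Bob1KO replicate 3, and the other B cell markers with a value in Bob1KO replicate 1. Bob1KO replicate 1 was also the library with the most myeloid RNA. The 7 myeloid markers with a value summed to 3579, 68.0 and 1023 FPKM in Bob1KO libraries, against 511, 447 and 756 FPKM in WT libraries, and all 7 had a mean of at least 1 FPKM. Most abundant were *S100a8* and *S100a9*, the calprotectin subunits of neutrophils, and *Tyrobp*, a signaling adapter. *S100a8* had 2027, 35.5 and 567 FPKM in Bob1KO libraries, against 294, 254 and 447 FPKM in WT libraries, so its highest and lowest values were both in Bob1KO libraries. *S100a9* had 1434, 24.1 and 411 FPKM in Bob1KO libraries, against 183, 155 and 276 FPKM in WT libraries, and *Tyrobp* had 56.3, 1.75 and 16.5 FPKM, against 15.4, 16.5 and 11.8 FPKM. The 3 plasma cell markers with a value (*Prdm1*, *Sdc1* and *Tnfrsf17*) summed to between 1.84 and 2.95 FPKM in Bob1KO libraries and between 1.62 and 2.68 FPKM in WT libraries. Markers of CD8+ T and NK cells (*Klrb1c*, *Cd8b1* and *Gzmb* the most abundant) summed to between 14.8 and 16.2 FPKM in Bob1KO libraries and between 13.9 and 18.2 FPKM in WT libraries, and *Ikzf2* and *Il2ra*, the regulatory T cell markers with a value, to between 65.3 and 74.7 FPKM and between 49.5 and 97.5 FPKM. Nearly all of the regulatory T cell sum was *Ikzf2*, as *Il2ra* reached at most 1.71 FPKM, and no value could be given for *Foxp3*. The part of other cells in the remaining *Pou2af1* was not tested. The fold change of *Pou2af1* without Bob1KO replicate 1 was -4.91, with a limma-adjusted P of 0.00361. In bulk RNA, fewer cells of a type and less RNA per cell cannot be told apart.

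*Pou2f2*, the lymphoid partner, was abundant in both groups and did not pass the test. Its main row spans chromosome 7 of GRCm38 from 25091114 to 25132460 in the Bob1KO libraries, on the minus strand. It had 83.8, 75.9 and 28.4 FPKM in Bob1KO libraries, against 38.7, 35.7 and 53.0 FPKM in WT libraries. In FPKM, 2 of the Bob1KO libraries lay above all WT libraries and the remaining one lay below all of them. The means were 62.7 ± 30.0 FPKM in Bob1KO cells and 42.5 ± 9.24 FPKM in WT cells (SD, n = 3 each). The log2 fold change was 0.43, with a standard error of 0.399 and a 95% interval of -0.51 to 1.37 (limma, adjusted P = 0.947), and the exact permutation P was 0.4. The interval includes 0 and reaches well into an increase, so it does not show that the levels were alike.

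Bob1KO replicate 3 decided the size of this value. Without it the log2 fold change of *Pou2f2* was 0.92, with a 95% interval of 0.44 to 1.39, an unadjusted P of 0.00331 and an adjusted P of 0.561 from limma. Without Bob1KO replicate 1 it was 0.15 (limma, adjusted P = 0.977), and without Bob1KO replicate 2 it was 0.22 (limma, adjusted P = 0.985). The main row rests on about 1888, 2208 and 1359 fragments in Bob1KO libraries, against about 1057, 1181 and 1161 fragments in WT libraries. By this inferred number, which is approximate, every Bob1KO library lay above every WT library, although Bob1KO replicate 3 had the lowest relative depth, 0.885. How many of all genes show such an order in fragments was not worked out. In FPKM, the groups of 5.83% of all genes tested did not overlap and were higher in Bob1KO. FPKM are also scaled to the transcripts assembled in each library, and why their order differs from that of the fragments was not tested. The Cufflinks interval of Bob1KO replicate 3, 26.8 to 29.9 FPKM, did not reach that of any other library, but it covers counting error only.

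The annotated gene reaches further at its 3′ end than the main row. GENCODE places *Pou2f2* from 25087344 to 25179726 of chromosome 7, and the 3770 bases from 25087344 to 25091113, all in annotated exons of the gene, were covered by 2 to 4 separate rows in each library. This stretch was singled out after its values were seen. Spread over its fixed length, these rows gave 2.89, 2.53 and 1.86 FPKM in Bob1KO libraries, against 1.63, 1.98 and 1.67 FPKM in WT libraries. As in the main row, Bob1KO replicates 1 and 2 were the highest of all libraries, but Bob1KO replicate 3 lay within the WT range here and not below it. The means were 2.43 ± 0.526 FPKM in Bob1KO cells and 1.76 ± 0.191 FPKM in WT cells (SD, n = 3 each, two-sided exact permutation P = 0.2). The main row was 29.0, 30.0 and 15.3 times as high as the stretch in Bob1KO libraries, against 23.8, 18.1 and 31.7 times in WT libraries, so this proportion was lowest in Bob1KO replicate 3. The exact permutation test of this ratio between the groups gave P = 1.

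**Figure D2:**
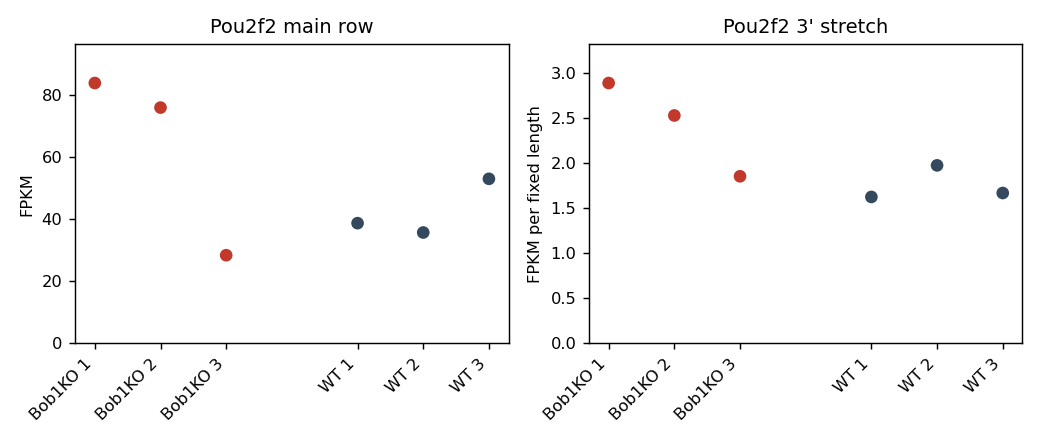
FPKM of the main *Pou2f2* row (left) and of the annotated 3′ stretch beyond it, per fixed length (right), in each Bob1KO and WT library. Bob1KO replicate 3 is the lowest library in the main row, at 28.4 FPKM, but lies within the WT range in the stretch, at 1.86 FPKM.

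The amount of *Pou2af1* RNA relative to that of its lymphoid partner was far lower in Bob1KO cells, which follows from the deletion of *Pou2af1* and is no separate evidence. The ratio of *Pou2af1* to *Pou2f2* FPKM was 0.0138, 0.00312 and 0.0112 in Bob1KO libraries, against 1.19, 0.911 and 0.649 in WT libraries. The WT libraries thus held about as much *Pou2af1* as *Pou2f2* RNA per unit of length. The ratio averaged 0.00937 ± 0.00558 in Bob1KO cells and 0.917 ± 0.271 in WT cells (SD, n = 3 each), and the lowest WT ratio was 46.9 times the highest Bob1KO ratio (exact permutation P = 0.1, the smallest possible).

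*Pou2f1*, the ubiquitous partner, could not be read in the separate libraries. Its full-length row, on chromosome 1 of GRCm38 from 165865154 to 166002634 on the minus strand, was listed at 0 FPKM in all 3 Bob1KO and all 3 WT libraries, with an interval of 0 to 0. Such zeros were not rare, since between 5.32% and 8.56% of the assembled rows of a library were listed at 0. The 3′ end of *Pou2f1* shares 12124 bases with *Cd247*, which runs on the other strand and encodes the zeta chain of the T cell receptor. *Cd247* was high in every library, with 314, 320 and 286 FPKM in Bob1KO libraries, against 266, 330 and 296 FPKM in WT libraries, and its groups overlapped (limma, adjusted P = 0.980). The listed 0 is therefore given as listed, and not as a level of *Pou2f1*.

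Inside the gene, beyond the end of *Cd247*, 36 short rows above 0 were found, 4, 6 and 8 in Bob1KO libraries, against 5, 8 and 5 in WT libraries. Of these, 35 touched no annotated exon of *Pou2f1* and 1 did. Their FPKM ran between 0.416 and 1.67, and they covered between 3.93% and 7.46% of the gene in Bob1KO libraries and between 4.64% and 9.92% in WT libraries. Their mean FPKM per covered base was 0.639, 0.799 and 0.742 in Bob1KO libraries, against 0.837, 1.22 and 0.850 in WT libraries. The Bob1KO values were below the WT values, but the rows lay almost entirely in introns and were assembled separately in each library, and no test was made. Another 2 rows, both in WT libraries and at 3.63 and 2.56 FPKM, lay in the part shared with *Cd247*.

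**Figure D3:**
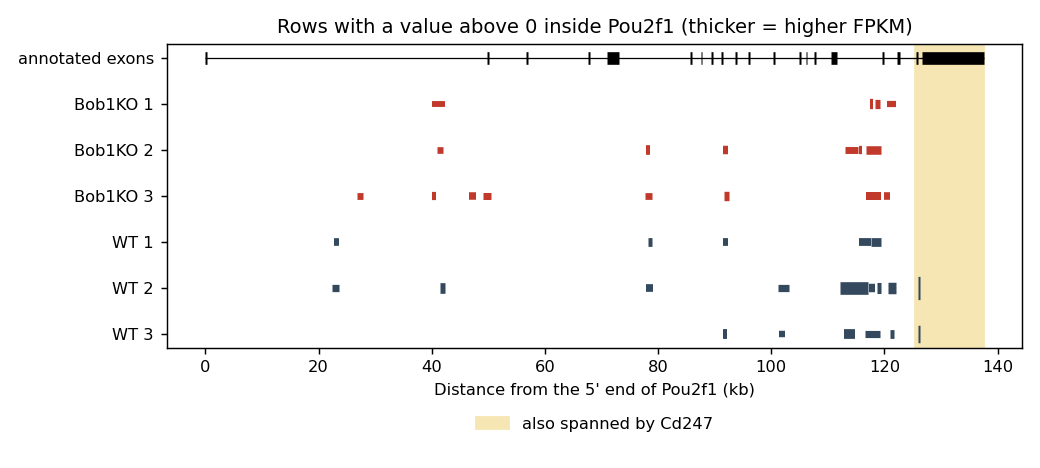
Rows with an FPKM above 0 inside *Pou2f1* in the Bob1KO and WT libraries, by distance from the 5′ end of the gene in kb, with annotated exons on top and the part shared with *Cd247* shaded. Line thickness grows with FPKM. The rows lie between the exons, and 1 of the 36 rows outside the shaded part touches an exon.

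The deposited table of both groups was made on a common assembly and gave a value for each of the 3 genes. These are the authors' group values, with no replicate error, and were not tested. For *Pou2af1* the table gave 0.668 FPKM in Bob1KO cells and 44.6 FPKM in WT cells. For *Pou2f2* it gave 45.4 FPKM in Bob1KO cells and 29.3 FPKM in WT cells. For *Pou2f1* it gave 2.96 FPKM in Bob1KO cells and 2.99 FPKM in WT cells, so in this table Oct-1 RNA stood well below Oct-2 RNA in both groups.

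The rest of the POU family was read to see which other octamer-binding factors the cells made. Of 18 genes in the list, which includes Bob1 and its relatives, 16 had a value and 4 had a mean FPKM of at least 1 in the separate libraries. *Pou2f1* stands among the other 12 only through its listed 0, and its level is not known from these libraries. Besides *Pou2af1* and *Pou2f2*, these were *Pou6f1* and *Pou5f2*. *Pou6f1*, a POU factor best described in the nervous system, had 6.53, 6.99 and 7.55 FPKM in Bob1KO libraries, against 9.81, 6.70 and 9.52 FPKM in WT libraries. Its groups overlapped, and its log2 fold change was -0.26 with a standard error of 0.174 (limma, adjusted P = 0.946). *Pou5f2*, a relative of the pluripotency factor Oct-4, had 2.50, 2.59 and 4.004 FPKM in Bob1KO libraries, against 2.98, 2.75 and 2.44 FPKM in WT libraries (log2 fold change 0.10, standard error 0.206, limma, adjusted P = 0.974). *Pou2f1* has no place in an order of levels taken from the separate libraries. Among the 4 genes that could be read there, ordered by their WT means, *Pou2f2* and *Pou2af1* came first, with WT ranges that overlapped, followed by *Pou6f1* and *Pou5f2*. In Bob1KO cells *Pou2f2* led, followed by *Pou6f1*, *Pou5f2* and *Pou2af1*, and no ranges of neighbours in this order overlapped.

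Among 13 other partners of Bob1 and the Oct factors, *Mef2b* had the smallest P value. The list holds proteins known to bind or modify Bob1, Oct-1 or Oct-2, the basal factors they meet at promoters, and *Mef2b*, a MADS-box factor of germinal center B cells that also occurs in Tfh cells. The list was drawn up with earlier results known. The study had already reported *Mef2b* as dependent on Bob1, from this RNA sequencing and from RT-qPCR, a PCR measure of single RNAs. Its place in the list is therefore no separate evidence. All 13 were tested, 3 were positive and 10 negative, and the median log2 fold change was -0.14, against -0.0033 for all genes tested. At the adjusted P, 0 of 13 were called in either direction, and 1 had an unadjusted P below 0.05, where 5.36% of all genes tested did. This was *Mef2b*, with 1.22, 1.18 and 0.404 FPKM in Bob1KO libraries, against 30.6, 9.28 and 10.6 FPKM in WT libraries. The groups did not overlap, in a direction (lower in Bob1KO) in which the groups of 4.84% of all genes tested did not overlap. Its log2 fold change was -3.04, with a 95% interval of -4.08 to -1.996, an unadjusted P of 0.000221 and an adjusted P of 0.187 from limma. The fold change stayed negative in every alternative, from -3.94 to -1.75, and its adjusted P from limma ran from 0.0783, without WT replicate 1, to 0.510. *Mef2b* thus did not pass the threshold over all genes in any of them.

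The next smallest P values in this list did not stand out from the spread. *Siah2*, a ubiquitin ligase of the family that marks Bob1 for degradation, had 20.9, 53.4 and 19.7 FPKM in Bob1KO libraries, against 52.3, 49.0 and 36.4 FPKM in WT libraries (log2 fold change -0.67, limma, adjusted P = 0.946). *Chd4*, the helicase of the NuRD complex, had 16.7, 31.3 and 11.9 FPKM in Bob1KO libraries, against 12.5, 13.9 and 10.5 FPKM in WT libraries (log2 fold change 0.56, limma, adjusted P = 0.946). For both genes the groups overlapped, and Bob1KO replicate 2 was the highest library. The remaining 10 partners had log2 fold changes between -0.45 and 0.11.

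Of 17 genes that are known as targets of Bob1 or the Oct factors in T or B cells, 8 were abundant enough to test. Of these, 1 was positive and 7 negative, 0 were called, and 0 had an unadjusted P below 0.05. Among all genes tested, 5208 of 10283 were negative, 0.0292% were called and 5.36% had an unadjusted P below 0.05. The median log2 fold change of the targets was -0.14, and it was -0.38 without Bob1KO replicate 2 and -0.072 without Bob1KO replicate 3. *Ifng*, the cytokine of Th1 cells, had 40.8, 59.3 and 35.0 FPKM in Bob1KO libraries, against 58.7, 46.5 and 53.2 FPKM in WT libraries (log2 fold change -0.25). *Il2*, which needs Oct-1 and Bob1 for full activity in T cells, had 1.19, 2.46 and 2.91 FPKM in Bob1KO libraries, against 1.70, 3.97 and 4.21 FPKM in WT libraries (log2 fold change -0.41). In limma both had an adjusted P of 0.946, and the groups of each overlapped. The log2 fold changes of *Bcl6*, the factor that defines Tfh cells, and *Btla*, an inhibitory receptor, were nearest to 0, with standard errors of 0.287 and 0.159.

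**Figure D4:**
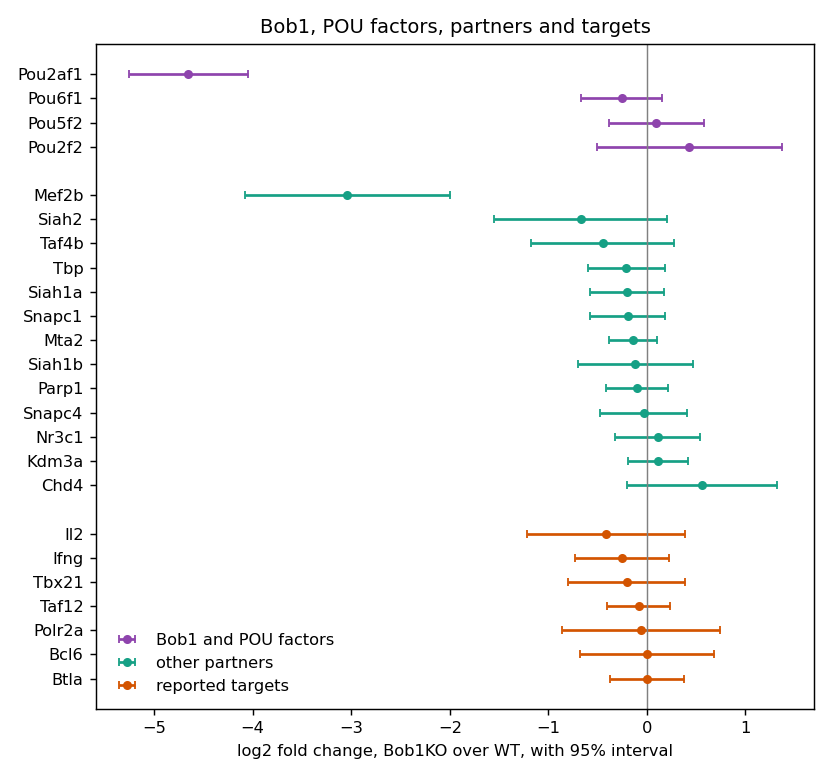
Log2 fold change, Bob1KO over WT, on the log2(FPKM + 1) scale, with its 95% interval from limma, for tested members of the POU family, the other partners and 7 of the known targets. Of those drawn, only the intervals of *Pou2af1*, around -4.65, and *Mef2b*, around -3.04, leave out 0.

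The octamer itself was then sought in promoters. RefSeq promoters of GRCm38.p6, 250 bases before to 50 bases after a start site, were matched to 8229 of the 10283 tested genes, 80.0%. The exact octamer ATTTGCAT, or its reverse complement ATGCAAAT, stood in 1.74% of 32851 promoter sequences and in 1.59% of these tested genes, which makes 131 genes. No promoter of *Pou2af1*, *Pou2f2* or *Pou2f1* in the table held it, and that of *Pou2af1* held a match that differs at 1 base. The windows below are shown because they hold the motif in the 5 octamer genes with the smallest P values, and, last, the near match of *Pou2af1*. Each is written on the gene's own strand, with the motif in capitals.
Mef2b: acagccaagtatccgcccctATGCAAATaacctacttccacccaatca
Spp1: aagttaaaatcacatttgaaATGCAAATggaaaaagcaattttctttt
Tspan13: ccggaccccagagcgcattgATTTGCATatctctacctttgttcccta
2310001H17Rik: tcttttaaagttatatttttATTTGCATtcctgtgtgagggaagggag
Pipox: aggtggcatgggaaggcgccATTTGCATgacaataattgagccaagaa
Pou2af1: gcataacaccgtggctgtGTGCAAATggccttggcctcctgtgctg
The windows lie at chr8:70152656-70152703 for *Mef2b* and chr5:104435962-104436009 for *Spp1* on the plus strand, and at chr12:36042571-36042618 for *Tspan13*, chr6:129238127-129238174 for 2310001H17Rik and chr11:77894040-77894087 for *Pipox* on the minus strand. That of *Pou2af1* lies at chr9:51213440-51213485 on the plus strand. A match of letters does not show that a factor binds there.

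The median of the octamer genes lay near that of the other genes, while the 9 with an unadjusted P below 0.05 in limma were mostly lower in Bob1KO cells. Of 131, 58 were positive and 73 negative, with a median log2 fold change of -0.027, against -0.0047 for the other 8098 genes with a promoter sequence. At the adjusted P, 0 of 131 were called by limma, and 9 had an unadjusted P below 0.05, a share of 6.87% where 5.36% of all tested genes had. Of these 9, 8 were lower in Bob1KO cells, 6.11% of the octamer genes where 2.18% of all genes tested were lower at this P. The remaining 1 was higher, 0.763% of the octamer genes, against 3.18% of all genes tested. The groups did not overlap for 15 octamer genes that were lower, 11.5% of them against 4.84% of all genes tested, and for 4 that were higher, 3.05% against 5.83% of all genes tested. With up to 1 mismatch allowed, 65 of 1133 genes had an unadjusted P below 0.05 in limma, a share of 5.74%. Of these 65 among 1133 genes, 33 were lower and 32 higher in Bob1KO cells. Among all 10283 genes tested, 224 were lower and 327 higher at this P, or 2.18% and 3.18%. The 1133 genes include the 131 with the exact octamer, which supply 8 of the 33 and 1 of the 32. They also include *Pou2af1* itself. These shares and counts are descriptions and were not tested. The octamer median was -0.071 without WT replicate 2 and 0.0098 without WT replicate 3, fits in which the median of all genes tested also moved, to -0.030 and 0.022. Relative to the median of all genes tested, that of the octamer genes differed by -0.041 to -0.012 when single libraries were left out.

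The octamer gene with the smallest P was *Mef2b*, whose motif starts 85 bases before its start site and whose values are given above. *Spp1*, which encodes the secreted phosphoprotein osteopontin, moved the other way, with 347, 111 and 147 FPKM in Bob1KO libraries, against 39.9, 21.5 and 20.2 FPKM in WT libraries. Its groups did not overlap (log2 fold change 2.73, standard error 0.443, limma, adjusted P = 0.227), and Bob1KO replicate 1, the library with the most myeloid RNA, had its highest value. Bob1KO replicate 2, the library with the least myeloid RNA, had the lowest *Spp1* value of its group, 111 FPKM, where the highest WT value was 39.9 FPKM. The part of myeloid cells in this difference was not tested. *Tspan13*, a tetraspanin, had 148, 145 and 155 FPKM in Bob1KO libraries, against 206, 205 and 255 FPKM in WT libraries, with little spread and no overlap (log2 fold change -0.56, standard error 0.121, limma, adjusted P = 0.444). The RIKEN gene 2310001H17Rik had 103, 104 and 72.5 FPKM in Bob1KO libraries, against 157, 132 and 138 FPKM in WT libraries (log2 fold change -0.62, limma, adjusted P = 0.706). *Pipox*, an oxidase of pipecolic acid, had 1.84, 1.04 and 1.01 FPKM in Bob1KO libraries, against 5.30, 2.26 and 4.28 FPKM in WT libraries (log2 fold change -1.07, limma, adjusted P = 0.782). None of these 4 genes, which were chosen for their small P values, passed the adjusted P.

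**Figure D5:**
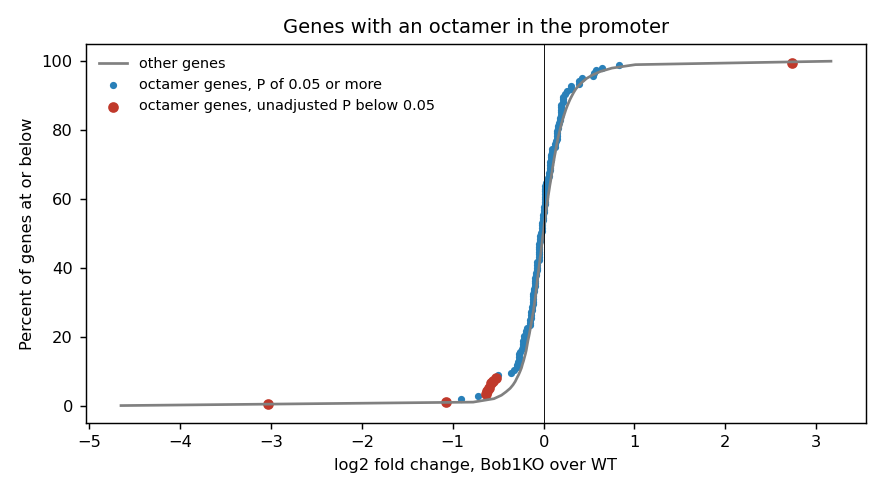
Cumulative share of genes by log2 fold change, Bob1KO over WT, for 131 tested genes with an octamer in the promoter (points) and the other 8098 genes with a promoter sequence (line). Red points are the 9 octamer genes with an unadjusted P below 0.05, 8 lower and 1, *Spp1*, higher in Bob1KO cells.

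The neighbours of the 3 genes on the chromosome were read to see whether the loss of *Pou2af1* extended beyond the gene. The nearest genes with a value around *Pou2af1* were nearly silent in both groups. *Btg4* had 0 FPKM in all Bob1KO libraries and 0.0787 FPKM in WT replicate 2, Mir34b was listed at 0 in all libraries, and 1810046K07Rik lay between 0.111 and 0.249 FPKM in Bob1KO libraries and between 0 and 0.231 FPKM in WT libraries. *Arhgap20*, a GTPase regulator 525272 bases away, had 0.404, 1.11 and 0.992 FPKM in Bob1KO libraries, against 0.815, 0.408 and 3.71 FPKM in WT libraries (limma, adjusted P = 0.959). Around *Pou2f2*, *Zfp574*, *Grik5*, the lincRNA D930028M14Rik and *Dedd2* had adjusted P values of 0.946 to 0.996 in limma. *Creg1*, on the far side of *Cd247* from *Pou2f1*, had 18.6, 10.3 and 15.5 FPKM in Bob1KO libraries, against 17.5, 14.9 and 22.7 FPKM in WT libraries, and *Dusp27* and *Gpa33*, on the other side, were listed at 0 throughout.

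The tested genes whose level over the 6 libraries ran most like that of *Pou2af1*, by Pearson's r on log2(FPKM + 1), were *Naa38*, *Tpst1*, *Immp1l*, C130026I21Rik and 5033414D02Rik, with r between 0.982 and 0.987. As *Pou2af1* falls into 2 clusters of libraries, these are genes lower in all Bob1KO libraries, and r is a description with no test. *Naa38*, a subunit of an N-terminal acetyltransferase, had 47.6, 39.2 and 35.5 FPKM in Bob1KO libraries, against 93.5, 97.8 and 105 FPKM in WT libraries. Its log2 fold change was -1.26, with a standard error of 0.133 and a limma-adjusted P of 0.0711. For *Pou2f2* they were *Zc3h3*, *Mbd3*, *Ptov1*, *Pdzk1ip1* and *Hist1h3a*, with r between 0.962 and 0.995. *Mbd3*, a subunit of the NuRD complex, had 90.8, 88.1 and 72.3 FPKM in Bob1KO libraries, against 77.7, 76.4 and 84.1 FPKM in WT libraries. Like *Pou2f2* it was highest in Bob1KO replicates 1 and 2 and lowest in Bob1KO replicate 3.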

How the data were processed

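RNA of sorted Tfh cells was sequenced in 6 libraries made with SMART-Seq v4 and Nextera XT. The authors used cutadapt 1.2.1 and PRINSEQ for trimming and TopHat2 2.0.13 for alignment to GRCm38, also called mm10. They deposited 1 table of FPKM from Cufflinks 2.2.1 per library, with interval bounds. Which annotation release they used is not stated. They also deposited 1 table of both groups, with group FPKM, used as the authors' values, and fold changes, test statistics, P and q values, which were not used. The files hold no counts. In rows with fewer than 100 fragments, the fragments inferred from the interval, taken as 2 Poisson SD on each side, were whole within 0.05 for 64.5% to 72.5% of rows, too few to recover counts, so no count test was run.

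Each library had its own assembly, and rows with an assembly number hold between 94.07% and 95.92% of the FPKM. Rows were assigned to genes by name, then by position (a shared length of at least 0.5 of the joint length with the RefSeq or GENCODE M21 span), then, for genes still without a row, where a row covered at least 0.95 of the gene, and FPKM were summed per gene. This assigned between 91.4% and 92.2% of the FPKM, and 6 genes with a failed estimate were left out. On log2(FPKM + 1), limma 3.58.1 (R 4.3.3) was run over genes whose mean FPKM reached 1, with a variance trend and the group as the only term, two-sided, with Benjamini-Hochberg adjustment over all genes tested and a threshold of 0.05. Such fold changes understate the change of genes with low FPKM. Intervals are 95% intervals from limma. The scripts were tested on simulated data. Python 3.11.15 with pandas 2.3.3 served for the tables.

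No column of single-library values was left unassigned. Replicate numbers come from the sample titles. Same-numbered Bob1KO and WT libraries deviated weakly together from their group means, with correlations of 0.122, 0.151 and 0.116 over the genes tested, so the numbers may mark pairs. The methods name no pairing, so the main fit held no block, and a replicate block was run as an alternative. P values measure the spread between these libraries.

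The members and gene lists were chosen with earlier results of these data known. Genes named are the members, every gene called, POU genes whose mean FPKM reached 1, the genes with the smallest P (up to 3) of each list, up to 3 of the most abundant markers of other cell types, the 2 nearest annotated genes on each side of a member (nearer genes to which no value could be given were passed over), the 5 genes most like *Pou2af1* and *Pou2f2*, and the 5 octamer genes with the smallest P. Promoters came from RefSeq and were matched by symbol (7177 genes), older symbol (781) or a part of a fused name (271). The alternatives changed the pseudocount, the filter, the scaling, the variance trend or the matching rule, added the replicate block or left out libraries. Some genes that this rule or the lists include are counted but not reported by name here.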

Additional observations from a re-analysis of the deposited data

How the results depend on the processing

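The fold change of *Pou2af1* stayed negative under every alternative, from -6.06 with a pseudocount of 0.1 to -2.93 with a pseudocount of 5, and passed the adjusted P in all but 1. Left out one at a time, the libraries gave -4.91 to -4.501, and without both replicate 2 libraries, chosen after seeing the data, it was -4.60 and no longer called; this fit has fewer samples. *Pou2f2* stayed positive and uncalled, between 0.11 and 0.92, with leave-one-out values of 0.15 to 0.92, and with the replicate block its adjusted P from limma was 0.872. The 3 genes called became 1 with a pseudocount of 0.1, 1 with a mean FPKM of at least 5 and 1 with the replicate block, and 1 to 8 when single libraries were left out, with 1 without Bob1KO replicate 3, 8 without WT replicate 1 and 5 without WT replicate 2; the cause was not tested. The block ended the calls of *Pcsk1* and C130026I21Rik, and changed no other call. *Pou2f1* was tested only where rows inside the gene were summed with no minimum of overlap, with a log2 fold change of -0.56 and a standard error of 0.373 (limma, adjusted P = 0.964); as these rows are mostly intronic, this is no measure of its messenger RNA. The octamer median was -0.023 with 1 mismatch allowed. What limits depth is the low end: the Bob1KO values of *Pou2af1* rest on about 14.7 to 59.9 fragments.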
